A study of Mus musculus with 2 samples.

Results

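Of the 16092 protein-coding genes of more than 5000 bp on mouse chromosomes 1 to 19, 1082 carried the histone mark H3R17me2a inside their span but not at either end. These genes were chosen from the deposited peaks themselves. A gene was a member when a peak found in both deposited lists overlapped its span, with 1 bp of overlap as the minimum, and when no peak of either list touched the 1000 bp on either side of the start or the end of the span. Members made up 6.72% of the genes (95% exact interval 6.34 to 7.12%). In the same count, 44.9% of the genes (7227) had a peak of each list at 1 of their ends, 8.91% (1433) had an end peak but no end window with a peak of each list, and 39.5% (6350) had none of these. Because the peaks made the choice, the counts, folds and positions of member peaks below are descriptions and carry no test.

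H3R17me2a is histone H3 dimethylated asymmetrically on an arginine of its tail. The enzyme that deposits it is Carm1, an arginine methyltransferase recruited to genes as a coactivator of nuclear receptors and other transcription factors, including Mef2c in muscle. Active histone marks of this kind are commonly seen at promoters and enhancers. Many genes have several promoters, and a promoter far inside the longest transcript of a gene starts a shorter product, so the outermost end of a gene is not always the end that a tissue uses.

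The chromatin came from homogenised frozen hearts of wild-type mice at 21 days of age (P21), which form the only group, with no input, other genotype or other age analysed here. The labels do not fully fit together, since 1 of them names primary cardiac fibroblasts, the titles carry the name carm1 beside a wild-type genotype, the series describes the hearts as neonatal, and the protocol names the antibody target as H3R17me2. Marker genes of each cell type showed end peaks in both lists for 7 of 8 cardiomyocyte genes, 0 of 8 fibroblast genes, 0 of 6 endothelial genes, 1 of 5 smooth muscle and pericyte genes (Acta2), 1 of 5 immune genes (Cd68) and 0 of 5 neuronal genes. In bulk chromatin, a mark carried by few cells and a weak mark carried by all cells cannot be told apart.

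The 2 peak lists, 1 per sample, held 21496 and 38012 peaks and could not be taken as independent measurements. At the member peaks, 43.2% of pairs (867) had their summit on the same base in both lists, and the ChIP reads recovered at those summits differed by a median of 1 read, with 81.9% within 2 reads. The factor behind the list 2 reads was fitted at common summits and brings them nearer to list 1. The samples were therefore counted as 1 sample, and a pair of values below compares peak calls, not hearts. The fold of a peak is the authors' own ratio of ChIP signal to background, and folds are compared within a list only. Total read depth is unknown from these files.

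The promoter windows below show what the members had in common and where they differed. Each runs from 250 bp before to 50 bp after a transcription start listed by RefSeq (GRCm38.p6, the coordinates of mm10), in the direction of the gene. Capitals mark each CpG, the dinucleotide that is depleted from most of the mouse genome and kept in CpG-rich promoters. The first pairs contrast an outer start without a peak with an inside start that carried one, and the genes were chosen after their values were seen. Hk1 encodes hexokinase 1, Mbnl1 a splicing regulator of muscle and Mlxipl the glucose-responsive factor ChREBP. Their windows lie at chr10:62379859-62380158 and chr10:62340372-62340671 (minus strand), chr3:60472580-60472879 and chr3:60500929-60501228 (plus strand), and chr5:135089640-135089939 and chr5:135106641-135106940 (plus strand).
Hk1 outer start, no peak: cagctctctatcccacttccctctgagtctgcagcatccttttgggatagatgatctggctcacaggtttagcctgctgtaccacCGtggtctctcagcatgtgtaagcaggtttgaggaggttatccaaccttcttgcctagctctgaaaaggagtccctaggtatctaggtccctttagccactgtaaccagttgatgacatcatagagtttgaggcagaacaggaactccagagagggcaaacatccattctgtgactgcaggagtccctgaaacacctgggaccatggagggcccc
Hk1 inside start, with a peak: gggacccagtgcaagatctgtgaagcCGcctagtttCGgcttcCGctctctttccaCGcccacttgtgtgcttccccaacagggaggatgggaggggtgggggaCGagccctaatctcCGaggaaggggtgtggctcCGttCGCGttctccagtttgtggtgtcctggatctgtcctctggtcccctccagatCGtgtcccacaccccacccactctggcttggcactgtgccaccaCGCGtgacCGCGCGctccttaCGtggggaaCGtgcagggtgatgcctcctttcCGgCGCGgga
Mbnl1 outer start, no peak: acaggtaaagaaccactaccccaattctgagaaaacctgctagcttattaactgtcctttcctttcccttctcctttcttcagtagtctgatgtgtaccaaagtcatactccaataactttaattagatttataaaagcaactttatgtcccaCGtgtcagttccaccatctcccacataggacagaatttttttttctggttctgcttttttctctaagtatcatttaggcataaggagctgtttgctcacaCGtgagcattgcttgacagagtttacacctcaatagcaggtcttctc
Mbnl1 inside start, with a peak: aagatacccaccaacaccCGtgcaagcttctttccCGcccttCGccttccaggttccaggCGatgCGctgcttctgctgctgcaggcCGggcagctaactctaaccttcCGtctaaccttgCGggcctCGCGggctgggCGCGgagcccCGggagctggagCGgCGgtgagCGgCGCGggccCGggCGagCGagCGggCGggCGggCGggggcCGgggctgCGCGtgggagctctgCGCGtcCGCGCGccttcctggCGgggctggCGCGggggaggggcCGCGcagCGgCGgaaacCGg
Mlxipl outer start, no peak: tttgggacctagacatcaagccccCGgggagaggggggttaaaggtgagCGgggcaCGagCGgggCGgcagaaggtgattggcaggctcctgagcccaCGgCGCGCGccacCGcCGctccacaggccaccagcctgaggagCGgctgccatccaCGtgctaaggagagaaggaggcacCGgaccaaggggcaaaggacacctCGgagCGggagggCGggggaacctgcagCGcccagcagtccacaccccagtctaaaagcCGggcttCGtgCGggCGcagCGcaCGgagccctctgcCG
Mlxipl inside start, with a peak: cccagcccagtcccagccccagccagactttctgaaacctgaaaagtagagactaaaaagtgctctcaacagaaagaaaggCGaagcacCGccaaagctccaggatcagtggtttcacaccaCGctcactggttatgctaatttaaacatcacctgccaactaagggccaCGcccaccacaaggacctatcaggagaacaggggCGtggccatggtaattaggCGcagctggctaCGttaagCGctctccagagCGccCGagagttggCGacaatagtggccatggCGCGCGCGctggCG
The other two windows are marked inside starts with few CpGs, those of Syne1, which encodes the nuclear envelope protein nesprin-1 (chr10:5069014-5069313, minus strand), and of Cd36, which encodes the fatty acid transporter of heart muscle (chr5:17835847-17836146, minus strand).
Syne1 inside start, with a peak: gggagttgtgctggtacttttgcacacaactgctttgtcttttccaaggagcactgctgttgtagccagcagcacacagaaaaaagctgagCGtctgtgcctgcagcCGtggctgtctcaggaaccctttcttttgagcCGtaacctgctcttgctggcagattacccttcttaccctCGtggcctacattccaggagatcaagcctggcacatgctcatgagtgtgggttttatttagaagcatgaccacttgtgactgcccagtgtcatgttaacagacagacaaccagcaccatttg
Cd36 inside start, with a peak: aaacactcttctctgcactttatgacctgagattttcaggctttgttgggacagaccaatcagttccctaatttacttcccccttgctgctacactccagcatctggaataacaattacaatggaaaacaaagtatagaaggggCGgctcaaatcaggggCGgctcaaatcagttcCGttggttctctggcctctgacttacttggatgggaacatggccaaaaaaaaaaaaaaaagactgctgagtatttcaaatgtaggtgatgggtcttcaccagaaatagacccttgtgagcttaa

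The Hk1 pair held 1 CpG at the unmarked outer start and 20 at the marked inside start. The CpG ratio, which is the number of CpGs relative to the number that the C and G content would give, was 0.0507 at the outer and 0.665 at the inside start. In Mbnl1 the count was 2 CpGs outside and 41 inside, with ratios of 0.184 and 0.980. Mlxipl differed from both, because its unmarked outer start was as rich in CpGs as its marked inside start, at ratios of 0.700 and 0.684. Syne1 and Cd36 went the other way and carried peaks at inside starts with 4 and 3 CpGs and ratios of 0.211 and 0.216.

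Most members carried a single peak. One shared inside peak was found in 750 of the 1082 members (69.3%, 95% exact interval 66.5 to 72.1%), 2 peaks in 169, 3 to 9 peaks in 143, and 10 or more in 20. In all, members held 2007 shared peaks, 9.61% of the 20878 shared peaks of the genome. Several list 1 peaks can meet the same list 2 peak, and the 2007 had 1922 distinct partners in list 2. The 5 members with the most peaks were Pde4dip with 22, Akap6 with 21, Nfia with 20, Nav2 with 18 and Shroom3 with 17. Pde4dip (myomegalin) and Akap6 (mAKAP) encode scaffolds that bind cyclic AMP signalling enzymes in heart muscle, Nfia a transcription factor, Nav2 a neuron navigator protein and Shroom3 an actin-binding regulator of cell shape.

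Members were long genes. Their median span was 59848 bp (quartiles 27244 and 125525 bp), against 26993 bp in genes marked at an end in both lists. It was 21939.5 bp in genes with no end peak and no shared inside peak, which may still hold an inside peak of 1 list. The share of genes that were members was higher at each step in span, from 2.02% of genes of 5000 to 10000 bp (56 of 2773) through 10.5% of those of 50000 to 100000 bp to 24.2% of those above 500000 bp (52 of 215, 95% exact interval 18.6 to 30.5%). A longer span has more room for a peak, so the rule itself favours long genes. The longest members were Ptprd, a receptor tyrosine phosphatase, with 2270506 bp, followed by Csmd1, Magi2, Lrrc4c and the phosphodiesterase gene Pde4d with 1301793 bp, and all but Magi2 and Pde4d of these held 1 peak each. The shortest were Mrgbp with 5107 bp, Mrps2 with 5227 bp and Btbd6 with 5234 bp, and their peaks lay 1467, 1836 and 2246 bp from the nearest end.

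**Figure D1:**
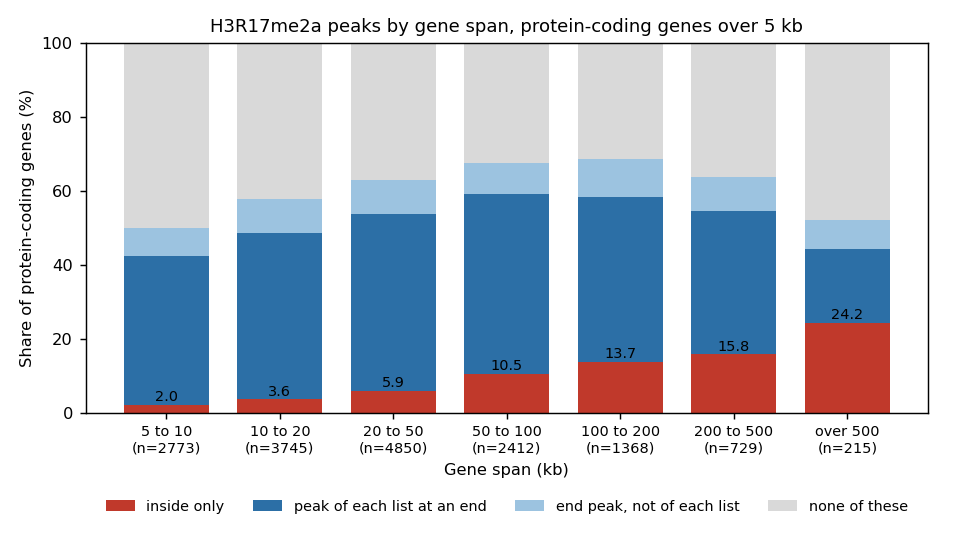
Share of protein-coding genes (vertical axis, %) in each class of H3R17me2a marking, by gene span in kb (horizontal axis, number of genes below each bar). The bottom part of each bar is the share marked inside only, which goes from 2.0% in the shortest to 24.2% in the longest genes, while the share with a peak of each list at an end is 20% in the longest.

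The rule has a sharp edge at 1000 bp. The member peaks nearest to that edge were in Rpl22, a ribosomal protein gene, at 1006 bp from the end of the span, in Pdss1, a coenzyme Q synthesis gene, at 1007 bp, and in Ammecr1l at 1010 bp. The genes that missed the rule by the least were Aph1b, 2510039O18Rik and Dip2b, where a list 2 peak reached 4, 12 and 14 bp into the end window and list 1 had none. With an end window of 3000 bp the number of members was 630 in place of 1082.

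The span ends of many members were not among the starts in the RefSeq promoter table used here. That table is not complete, so a missing start is not evidence that a gene has none there. A start was available for 861 of the 1082 members, and for none of the 29 members on chromosome 18. In 438 of them (50.9%, 95% exact interval 47.5 to 54.3%) every listed start lay more than 1000 bp inside both ends of the span. The same held for 6.30% of 5869 genes with a listed start that were marked at an end in both lists. It held for 13.2% of 4950 genes with a listed start but no end peak and no shared inside peak. The rule sorts genes by peaks at their span ends, and members were longer, so these shares are not independent of the rule. Of the 438 members, 349 (79.7%) carried a shared peak within 1000 bp of an inside start. For at least 1 peak of each of these genes, the label "marked inside" describes the span in the gene table, and that peak lay at a listed start. Their other peaks may lie away from any listed start, as the strongest peak of Prkag2 did.

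Counting every member with a listed start, 460 of 861 (53.4%, 95% exact interval 50.03 to 56.8%) had a marked inside start, 401 had none, and 221 further members had no start in the table. Over starts, 596 of the 892 inside starts of members (66.8%) were marked, beside 33.1% of the inside starts of all genes over 5000 bp and 47.5% of those in genes marked at an end in both lists. Counted by gene, 460 of the 613 members with an inside start (75%) had a marked one. In genes with an end peak but no end window with a peak of each list, 28.8% of the inside starts were marked. The rule requires an inside peak in every member, so these shares are not independent of it. The 53.4% of members with a listed start that had a marked inside start depends on the peaks that are kept. The same share was 18.6% among members defined from the upper 50% of peaks by fold, and 43.3% with an end window of 3000 bp.

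A marked inside start has a shared peak within 1000 bp by definition, so the distances below are partly set by that window. The summit of the nearest list 1 peak lay a median of 135 bp from the start, and 426 of the 596 summits (71.5%) lay within 250 bp. Summits fell on the downstream side at 52.5% of these starts and at 44.5% of 6075 marked outer starts of end-marked genes. The rule allows no member peak within 1000 bp of a span end, which limits the upstream side of inside starts near the 5′ end. Marked outer starts of end-marked genes have no such limit, so the contrast cannot show a difference in summit position. The marked inside starts themselves were a median of 4986 bp from the 5′ end of the span. Of the 596, 300 lay within 5000 bp, 394 within 10000 bp and 28 beyond 100000 bp. The deepest, 610126 bp into the gene, was in Sgcd, which encodes delta-sarcoglycan.

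**Figure D2:**
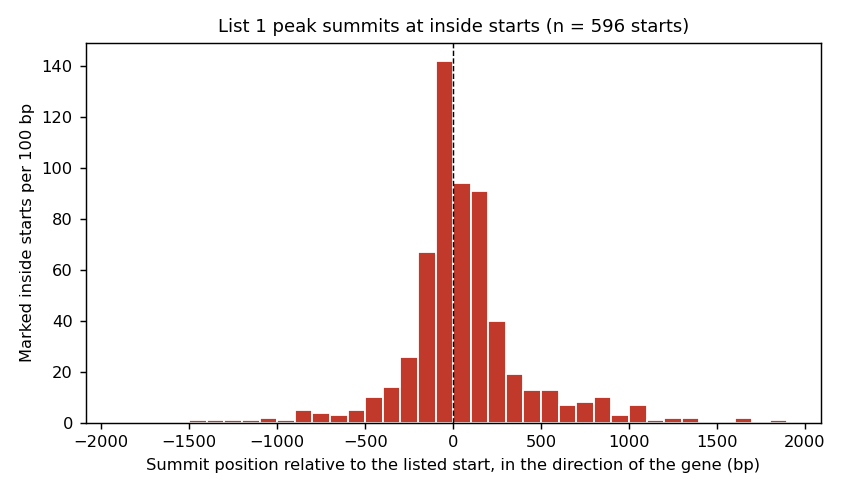
Number of marked inside starts (vertical axis) by the position of the nearest list 1 summit relative to the start in bp, counted in the direction of the gene (horizontal axis, 100 bp bins). Of the 596 summits, 71.5% lie within 250 bp of the start and 52.5% downstream. A marked start has a shared peak within 1000 bp by definition, which limits the spread.

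Inside starts with a peak were rich in CpGs, and those without were not. The median CpG ratio was 0.812 at the 596 marked inside starts of members, 0.298 at the 296 unmarked inside starts and 0.470 at the 443 outer starts of members, which lie within 1000 bp of a span end. Marked outer starts of end-marked genes had a median of 0.831, and outer starts of genes with no end peak and no shared inside peak 0.334. A ratio of 0.6 or more was reached by 78.5% of the marked and 20.6% of the unmarked inside starts of members. Sequence was not part of the rule, but starts are not replicates and share 1 sample, so no p-value is given.

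In 110 members an unmarked outer start and a marked inside start could be set side by side within the gene. The inside start had the higher CpG ratio in 92 of the 110 (83.6%), with medians of 0.753 inside and 0.285 outside. In 66 genes only the inside start reached 0.6, in 7 only the outer one did, in 13 both did and in 24 neither did. The converse held in genes marked at an end, where the marked outer start had the higher ratio than an unmarked inside start in 243 of 254 (95.7%). Egfl7, an endothelial secreted factor, was one of the members that followed the common pattern, with ratios of 0.197 outside and 0.945 inside. Syne1 was one of the exceptions, with 0.347 outside and 0.211 inside.

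**Figure D3:**
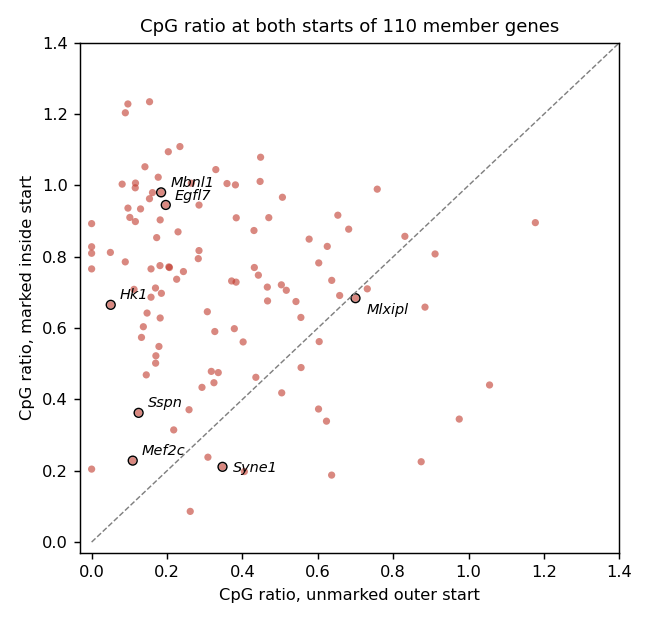
CpG ratio of the marked inside start (vertical axis) against that of the unmarked outer start (horizontal axis) in 110 members, 1 point per gene, with the line of equal ratios dashed. Points lie above the line in 92 genes, among them Hk1, Mbnl1 and Egfl7, while Mlxipl and Syne1 lie below it.

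Short motifs were counted on both strands of the same windows. The GC box GGGCGG, which contains a CpG, was present in 63.9% of the marked inside starts, 27.7% of the unmarked inside starts and 44.9% of the outer starts of members, beside 35.7% of all promoter windows of the table. In end-marked genes it was in 60.7% of marked inside, 22.0% of unmarked inside and 71.8% of marked outer starts, so it was not particular to members. The TATA box TATAAA was present in 5.37% of the marked inside starts, 8.78% of the unmarked inside starts and 11.5% of the outer starts, beside 13.6% of all windows. In end-marked genes it was in 5.21% of marked inside, 15.8% of unmarked inside and 5.09% of marked outer starts. The TEAD site CATTCCA was in 3.02% of the marked inside starts and 4.29% of all windows. The estrogen-related receptor site TCAAGGTCA was in 0 of 596 marked inside starts, which allows up to 3 counts, and in 0.423% of all windows. Sites of different motifs may share bases, and a match describes letters only.

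Most of the member peaks were not at a listed start of their gene. Of the 2007 peaks, 519 (25.9%) lay within 1000 bp of one, 987 (49.2%) lay at neither a listed start nor another gene, 320 (15.9%) were in members with no listed start, 144 (7.17%) fell in a non-coding gene and 37 (1.84%) touched the end of another coding gene. In members with a listed start, 31.8% of 1633 peaks lay within 1000 bp of a listed start of the gene, inside or outer. Of the span of these genes, 1.46% lies within 1000 bp of an inside start. The rule chose these peaks by position, so the 2 shares are not a test of enrichment. Peaks at an own start lay early in the gene, at a median of 16.8% of the span from the 5′ end, and the peaks away from any listed start or other gene at 52.4%.

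Member peaks at an own start and the other 1488 member peaks differed in fold and in reads, in opposite directions. The latter include peaks in members with no listed start and peaks in or at other genes. Peaks at an own start had a median fold of 3.91 in list 1 and 3.59 in list 2, and those elsewhere inside members 5.60 and 4.61. Recovered ChIP reads at the summit went the other way, with medians of 44 and 46 reads at own starts and 19 and 20 elsewhere. The background recovered for list 1 was a median of 10 reads at own starts and 2 elsewhere. Its lowest value was 1.01 reads in both classes, and among peaks at that value the list 1 fold depends on reads alone. Peaks at the ends of end-marked genes had values near those of own starts (fold 4.001 and 3.69, reads 50 and 52, list 1 background 11). Deep inside end-marked genes, the values were near those of the other member peaks, with folds of 5.47 and 4.33 and 18 and 20 reads.

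**Figure D4:**
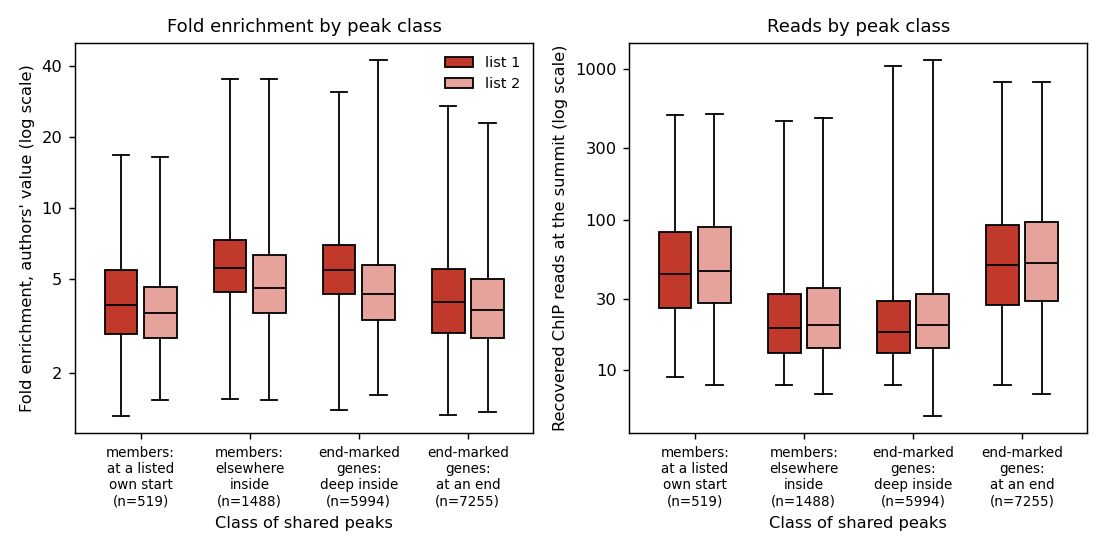
Authors' fold enrichment (left, log scale) and recovered ChIP reads at the summit (right, log scale) in 4 classes of shared peaks, with list 1 in dark and list 2 in light red. Boxes give quartiles and medians, whiskers the lowest and highest peak. Own starts and gene ends have lower median folds and higher median reads than the other 2 classes.

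List 2 holds weaker calls than list 1, and some member peaks rest on them. In list 2, 529 of the 2007 member peaks (26.4%) had a −log10 p under 5, and 13% had a q above 0.05. An inside peak with a list 2 q of at most 0.05 was present in 1006 of the 1082 members.

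Among member peaks outside any other gene, the lowest summed rank by fold over both lists was in Sspn, which encodes sarcospan of the dystrophin complex. Its peak at chr6:145940913-145941266 had a fold of 27.3 in list 1 and 27.7 in list 2, with 81 and 80 reads, and lay 9279 bp from the 5′ end, away from both listed starts. A weaker peak with folds of 3.89 and 2.97 and 17 reads in each list lay at its inside start, 2249 bp from the 5′ end. Syne1 combined a high fold with a listed start. Its peak at chr10:5068287-5070051 had folds of 16.8 and 16.4 and 83 and 78 reads, and the start beneath it, printed above, lies 481629 bp from the 5′ end of the gene. Short nesprin-1 products that start near the end of the gene are known in striated muscle. The outer start and the other inside start of Syne1 had no shared peak.

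The other members with the lowest summed ranks by fold were peaks away from listed starts or in a gene without one. Dclk1, a microtubule-associated kinase gene, had folds of 19.9 and 19.7 with 39 and 52 reads. Rap1gap2, which encodes an activator of Rap GTPase hydrolysis, had 15.7 and 17.5 with 46 reads in each list. Abi3bp, a matrix protein gene, had 20.9 and 14.5 with 41 and 38 reads, and Tenm2, a teneurin adhesion gene, had 19.4 and 14.1 with 38 reads in each list. Dclk1, Abi3bp and Tenm2 lay at the lowest list 1 background of 1.01 reads, so their order by list 1 fold is their order by reads. Zfp607b, a zinc finger gene, stood apart between lists, with 15.4 and 184 reads in list 1 and 34.7 and 279 reads in list 2. The strongest peaks of Lhfpl3, Lactbl1, Abca12, Chst8 and Zfp618 had folds between 15.0 and 19.4 in list 1 and between 14.3 and 18.6 in list 2.

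The widest member peaks were in Hivep2, a zinc finger transcription factor gene, with 3646 bp in list 1 and 3697 bp in list 2, and in Phactr1, a regulator of actin and protein phosphatase 1, with 3219 and 3293 bp. Nr3c1, the glucocorticoid receptor gene, followed with 2780 and 3092 bp, Dnajc18, a co-chaperone gene, with 2450 and 2500 bp, and Tns2, which encodes the focal adhesion protein tensin-2, with 2425 and 2426 bp. In Hivep2 and Tns2 the wide peak covered the gene's only listed start, which lies 4770 and 4459 bp inside the span. The Hivep2 start had a CpG ratio of 0.822 and the Tns2 start 0.0708. In Phactr1 the wide peak was 3801 bp from the far end of the gene and at none of its 3 listed starts.

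Fuel metabolism was represented by few members with many peaks. Of 46 enzyme and transport genes of fatty acid and glucose use, 40 were marked at an end in both lists (87.0%, beside 44.9% of all genes) and 2 were members (4.35%, beside 6.72%). The median span of the 46 genes was 23920.5 bp, where 5.88% of all genes were members. Cd36 held 10 shared peaks, and its only listed start lies 53063 bp inside the span. The peak that covers that start, chr5:17835301-17837064, had folds of 11.0 and 8.28 with 40 and 42 reads, and its summit was 561 bp upstream of the start. Hk1 held 9 shared peaks, of which the one at the inside start had folds of 5.86 and 3.74 with 81 and 77 reads, and a summit 5 bp from the start. Another Hk1 peak, 47543 bp from the 5′ end and away from listed starts, had the higher folds of 8.76 and 8.89 with 57 reads in each list.

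Regulators of metabolism gave 5 members of 35 genes (14.3%, beside 6.72% of all genes), on a median span of 80250 bp, in the range of lengths where 10.5% of all genes were members. Of the 5, 4 had a marked inside start, as had 53.4% of all members with a listed start. Prkag2, the regulatory gamma subunit of AMP-activated protein kinase that is expressed in heart, had 9 peaks and 3 listed starts, all of them inside and all marked. Those starts lay 5640, 110529 and 197773 bp from the 5′ end, with CpG ratios of 0.717, 0.316 and 0.962. Their peaks had list 1 folds of 4.25, 9.67 and 3.91 with 16, 28 and 78 reads, so the CpG-poor start had the highest fold and the CpG-richest start the most reads. The highest fold of Prkag2, 14.1 in list 1 and 15.3 in list 2 with 126 and 122 reads, was at chr5:24963371-24964460 and away from every listed start. Mlxipl had folds of 7.56 and 4.37 with 67 and 69 reads in a peak just past its inside start, and 3.40 and 2.17 with 33 and 30 reads in the peak nearest to it. Klf15, a transcription factor that controls lipid and amino acid use in heart, had low folds of 2.02 and 2.43 but 183 reads in each list. Rxrg, a retinoid X receptor gene, had 4.17 and 3.81 with 24 and 23 reads, and Nr3c1 had no listed start.

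Sarcomere genes gave 3 members of 40 (7.5%, beside 6.72% of all genes), with 34 marked at an end in both lists (85%, beside 44.9%). Their median span was 56898 bp, where 10.5% of all genes were members. Nebl, which encodes nebulette of the Z-disc, is known for a second product, LASP2, from another start. None of its 4 listed inside starts was marked by a shared peak, and its 2 peaks had folds of 7.96 and 6.10 with 15 reads in each list, and 3.00 and 2.18 with 17 and 16 reads. The second of these had a list 2 −log10 q of 0. Sorbs2, an adaptor of the Z-disc, had 8 peaks, among them 1 at an inside start with folds of 6.25 and 5.19 and 24 reads in each list. Myom3, an M-band protein gene, had 4.11 and 8.23 with 36 and 39 reads.

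Genes of the dystrophin complex and cell adhesion gave 6 members of 35 (17.1%, beside 6.72% of all genes), with 28 marked at an end in both lists (80%, beside 44.9%). Their median span was 104294 bp, in the range where 13.7% of all genes were members. Besides Sspn, they were Itga9, an integrin gene with 14 peaks and a highest fold of 11.8 and 12.1 on 58 and 57 reads, Dtna (dystrobrevin) with 11.0 and 8.74, Sgcd with 9.45 and 8.30, Ank2 (ankyrin-B) with 6.502 and 5.39, and Tjp1 (the junction protein ZO-1) with 3.39 and 2.04 on 60 and 61 reads. Sspn, Sgcd, Ank2 and Tjp1 had a marked inside start, as had 53.4% of all members with a listed start.

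Calcium handling genes gave 3 members of 33 (9.09%) and ion channel genes 5 of 32 (15.6%), beside 6.72% of all genes. Their median spans were 111514 and 56378 bp, where 13.7% and 10.5% of all genes were members. Stim1, the calcium sensor of the reticulum, was marked at its only listed start, with folds of 4.43 and 2.88 and 30 and 31 reads. Camk2b, a calmodulin-dependent kinase gene, differed between lists, with 2.04 in list 1 and 8.47 in list 2 on 58 and 57 reads, and Camk1d had 7.96 and 6.10 on 15 reads in each list. Among channels, Kcnq1, the pore of the slow repolarising potassium current, held 7 peaks with a highest fold of 6.17 and 5.29 on 13 and 15 reads, and had no listed start. Kcnj3, an inward rectifier of the atrium, was marked at its only listed start with 6.71 and 4.63 on 13 and 12 reads. Cacna1h, a T-type calcium channel gene, had 1 peak on 13 and 12 reads. The strongest peak of Cacna1d overlapped another gene and cannot be assigned to the channel alone.

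Of 34 cardiac transcription factor genes, 4 were members (11.8%, beside 6.72% of all genes), on a median span of 85240 bp, where 10.5% of all genes were members. Mef2c, a muscle transcription factor, had 6 peaks. Its outer start was unmarked, and both inside starts, 19639 and 69590 bp into the gene, were marked. The peak at the deeper start had folds of 8.87 and 9.96 with 31 reads in each list, and the other 4.49 and 4.25 with 23 and 19 reads. All 3 Mef2c starts differed in CpG ratio, with 0.109 at the outer, 0.612 at the nearer and 0.228 at the deeper start. Hdac9, a histone deacetylase that binds MEF2 factors, had a highest fold of 10.9 and 7.30 on 21 and 22 reads, Runx1 11.1 and 8.10 on 77 reads in each list, and Tbx5, a factor of the atria and conduction system, 7.46 and 5.73 on 14 reads in each list.

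**Figure D5:**
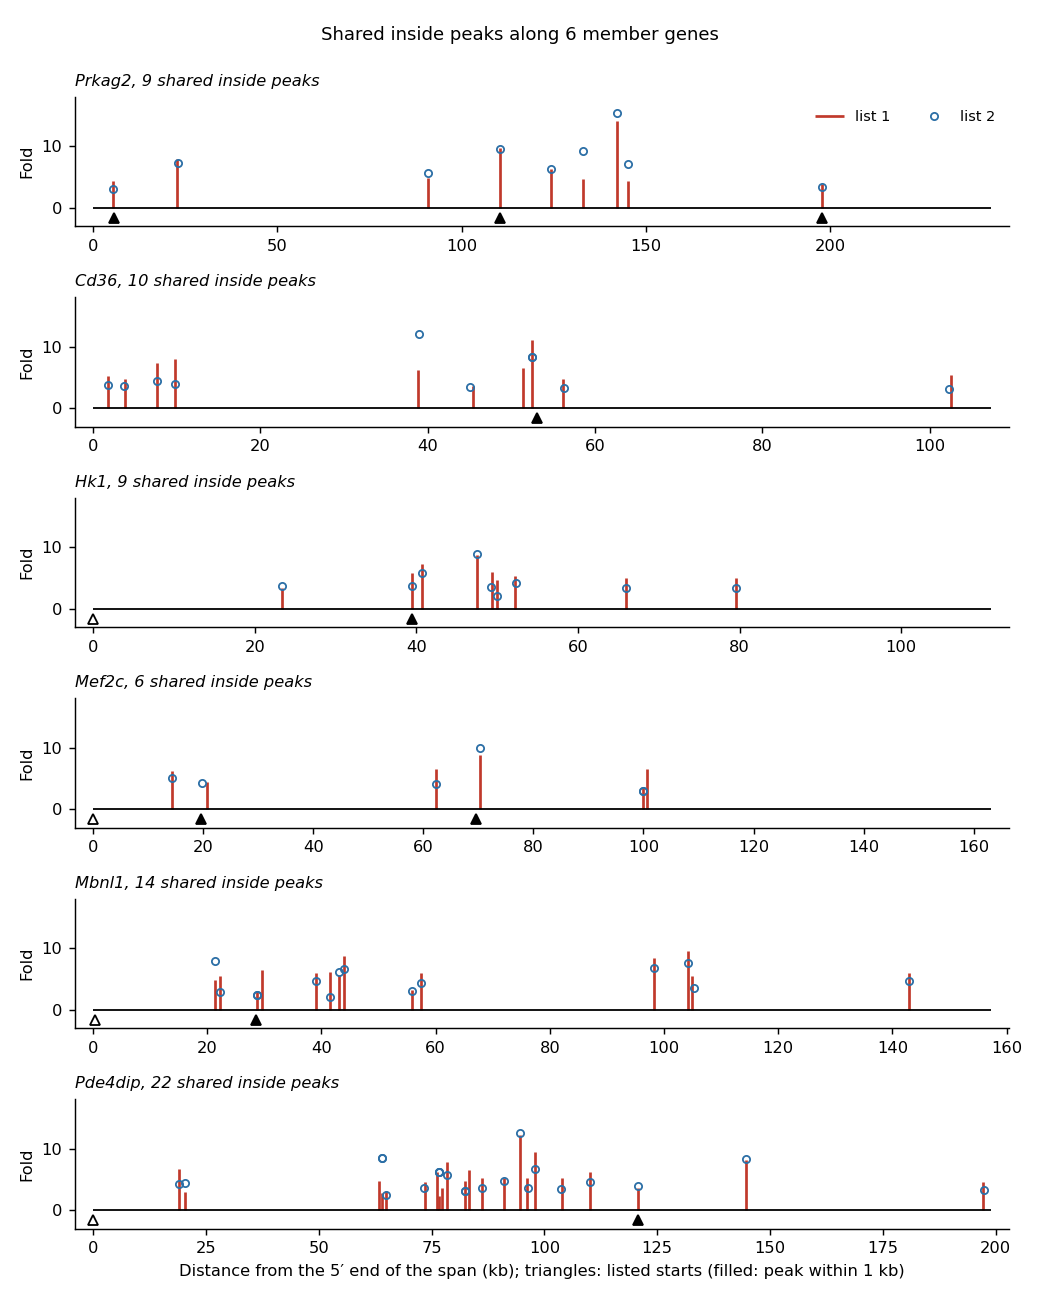
Authors' fold of shared inside peaks (vertical axis; lines for list 1, circles for list 2) against distance from the 5′ end of the span in kb (horizontal axis) in 6 members, with triangles for listed starts, filled where a shared peak lies within 1000 bp. In Prkag2 and Cd36 every listed start is inside and marked, in Hk1, Mef2c, Mbnl1 and Pde4dip the outer start is open and an inside start is filled, and most peaks lie away from any listed start.

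Cyclic nucleotide and kinase signalling genes had 10 members of 38 (26.3%, beside 6.72% of all genes), with 18 marked at an end in both lists (47.4%, beside 44.9%). The median span of the 38 genes was 151800 bp, in the range of lengths where 13.7% of all genes were members. The phosphodiesterase genes Pde4b, Pde4d and Pde1c, whose products break down cyclic nucleotides, held 13, 9 and 4 peaks. Their strongest peaks had list 1 folds of 7.88, 12.7 and 11.4 on 24, 26 and 22 reads, and list 2 folds of 7.61, 9.38 and 9.40. Akap6 reached 10.4 and 6.37 on 20 and 19 reads, and its only listed start was unmarked. Adra1b, the alpha-1B adrenergic receptor gene, had 5 peaks with a highest fold of 6.502 and 8.23 on 25 reads in each list. Prkar1a, a regulatory subunit of protein kinase A, had 4 peaks with a highest fold of 4.67 and 5.26 on 13 reads in each list. Of the 10 genes, 6 had a marked inside start, as had 53.4% of all members with a listed start.

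RNA binding and splicing genes gave 4 members of 21 (19.05%, beside 6.72% of all genes), on a median span of 79239 bp, where 10.5% of all genes were members. All 4 had a marked inside start, as had 53.4% of all members with a listed start. Mbnl1 held 14 peaks, and the peak at its inside start, 28620 bp into the gene, had low folds of 3.00 and 2.44 but 110 and 113 reads. Its highest fold, 9.45 and 7.57 on 18 and 19 reads, was away from the listed starts. Celf2, a splicing regulator with effects opposed to those of Mbnl1 in heart, had 9.20 and 11.7 on 45 and 93 reads at an inside start. Cpeb1, a regulator of polyadenylation, had 2.85 and 3.68 on 36 and 41 reads, and Ptbp2, a repressor of exon inclusion, 4.13 and 2.99 on 65 and 66 reads.

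Growth factor genes gave 2 members of 36 (5.56%), Ntrk3 and Grb10, and arginine methylation genes 1 of 15 (6.67%), beside 6.72% of all genes. Their median spans were 108610 and 30640 bp, where 13.7% and 5.88% of all genes were members. The arginine methylation member was the deiminase gene Padi4 with 8.14 and 4.61 on 16 and 15 reads.

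A list of 20 genes known for internal promoters held 6 members (30%, beside 6.72% of all genes), Dlc1, Grb10, Nebl, Pde4b, Pde4d and Runx1. It held 7 genes marked at an end in both lists (35%, beside 44.9%). The median span of this list was 211342 bp, where 15.8% of all genes were members. Only Pde4b of the 6 was marked by a shared peak at a listed inside start. Dlc1 had no listed start and Pde4d no listed inside start, so neither could be marked at one. At an inside start of Runx1 and of Nebl, a peak of either list but no shared peak lay within 1000 bp.

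Genes of cell types other than the cardiomyocyte held members too, and these shares stand beside 6.72% of all genes. Fibroblast and matrix genes gave 2 of 24 (8.33%), Col5a1 with folds of 7.96 and 6.10 and Col6a3 with 5.33 and 3.84, each on 15 to 17 reads. The median span of the 24 genes was 72475 bp, where 10.5% of all genes were members. Endothelial genes gave 3 of 21 (14.3%), on a median span of 46246 bp, where 5.88% of all genes were members. Eng, the endothelial co-receptor endoglin, had 15.9 and 13.7 on 31 and 37 reads, Pecam1 6.002 and 5.76 on 17 reads in each list, and Egfl7 6.93 and 3.86 on 21 and 20 reads at its inside start. Smooth muscle and pericyte genes gave 2 of 13 (15.4%), Cspg4 and Notch3, and immune genes 0 of 16, which allows up to 3 counts. The median spans of these lists were 34767 and 22343.5 bp, where 5.88% of all genes were members. Neuronal and synaptic genes gave 9 of 44 (20.5%), with 31 lacking any peak of the kinds counted. Their median span was 970928 bp, and 24.2% of all genes above 500000 bp were members. Cdh13, a cadherin gene that vascular cells also use, stood out among them with 15 peaks and a highest fold of 12.2 and 15.7 on 31 and 55 reads, whereas 7 of the other 8 had 1 peak each.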

How the data were processed

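H3R17me2a ChIP-seq peaks of 2 samples (wild-type mouse heart, 21 days) were analysed as 1 group. The members and gene lists were chosen with earlier results of these data known. Per the submitters' processing notes, FastQC and Bowtie2 were used with mm10. Tool versions, peak caller, control and filters are unstated (not given in the sources used here). The authors deposited 1 list per sample in the narrow peak layout, with an integer score, a fold (the linear ratio of ChIP to background), and p-values and q-values as −log10, judging by layout and values. The deposited score was not used. Mitochondrial peaks were left out.

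Gene spans and promoter windows came from RefSeq tables of GRCm38.p6, and coordinates are 1-based. Strand and starts are those of the promoter window table, which is not complete. A start was inside when more than 1000 bp from both span ends, and marked when a shared peak lay within 1000 bp. The CpG ratio is the CpG count times the window length of 300 bp over the product of the C and G counts. A shared peak is a list 1 peak that overlaps a list 2 peak by at least 1 bp.

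Reads at a summit were recovered as the whole number that gives the deposited fold and p under an upper Poisson tail, to 0.001 of the −log10 value. That succeeded for 99.97% of list 1 and, with a fitted factor of 0.618, 99.79% of list 2 peaks. The list 1 recovery was tested on simulated summits of low background. The list 2 recovery, with its fitted factor, was not tested in that way. Intervals are 95% exact binomial and, like the limit of 3 counts for a count of 0, cover counting error only. No p-value was computed, as there is 1 group and 1 effective sample.

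Named genes were the 12 members with the lowest summed rank by fold of their strongest inside peak outside any other gene, the 5 with the most peaks, the 5 with the widest peak by the narrower of the pair, the 5 longest, the 3 shortest, up to 3 from each of the 18 lists, and the 3 nearest to the edge of the rule on each side. One list and a few list members are not reported here. The printed sequences, the mapped genes and the further list members named were chosen after their values were seen. Alternatives changed the end window, overlap, thresholds, gene length and gene assignment. Python 3.11.15, numpy 2.4.6, pandas 2.3.3, scipy 1.17.1 and matplotlib 3.10.9 were used.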

Additional observations from a re-analysis of the deposited data

How the results depend on the processing

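Counts rest on 1 sample, a promoter table that lacks a start for 221 members, and peaks with few reads away from starts. The number of members was 630 with an end window of 3000 bp, 592 when listed starts counted as ends, and 1414 to 1962 when 1 list was left out, and it stayed within 1.5 times of 1082 under the other 9 alternatives. Of the 1082 members, 911 remained at a −log10 p of 5 in each list, 948 at a −log10 q of 2 and 623 with the upper 50% of peaks by fold. The share with a marked inside start, whose alternatives were all chosen after seeing the data, was 50% with a 500 bp window, 43.3% with 3000 bp, 48.4% at a −log10 p of 5, 48.8% at a −log10 q of 2, 18.6% for the upper 50% by fold, 49.2% with list 2 cut to as many peaks as list 1, and 36.4 to 49.0% with 1 list. With 3000 bp the median span was 82465 bp, the list 1 fold 5.47, the list 2 fold 4.52 and the CpG ratio at the listed start nearest the 5′ end 0.602, from 0.631. With the upper 50% by fold these were 73723.5 bp, 6.84, 5.36 and 0.727, and 63.8% of members had 1 peak. With listed starts as ends, an alternative chosen after seeing the data, they were 65669 bp, 5.67, 4.63 and 0.492, and 72.8% had 1 peak. The list 1 and list 2 folds were 5.80 and 5.07 at a −log10 p of 5, 5.73 and 4.96 at a −log10 q of 2, and 5.64 and 4.78 with list 2 trimmed. A reciprocal overlap of 50% gave 72.9% of members with 1 peak, and genes over 20000 bp 65.9%, with a span of 74188 bp. Leaving out 1 list gave 59.7 to 64.9% with 1 peak, spans of 58334 to 60844 bp and CpG ratios of 0.569 to 0.652. Without replicate 1 the list 2 fold was 3.53 and there is no list 1 fold, and without replicate 2 the list 1 fold was 5.27 and there is no list 2 fold. These alternatives recomputed levels and counts only, so the contrasts between classes of starts or peaks were not rerun. The cause of these shifts was not tested. No paired analysis was possible because the samples form 1 group.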

Other observations

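Some member peaks lie where genes overlap. In 154 members every inside peak overlapped another annotated gene, 201 member peaks overlapped a long non-coding RNA gene and 2 a miRNA gene, and 7 peaks lay inside more than 1 member. Without peaks that overlap another gene, 928 members were left. Members were spread over the autosomes, from 5.69% of the genes over 5000 bp on chromosome 19 to 8.09% on chromosome 12.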
